A study of Mus musculus with 6 samples.

Results

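The annexins are a family of proteins that bind calcium and, through it, the acidic phospholipids on the inner face of cell membranes. RNA of 8 annexin genes, *Anxa1*, *Anxa2*, *Anxa3*, *Anxa4*, *Anxa5*, *Anxa6*, *Anxa7* and *Anxa11*, was compared between murine acute myeloid leukemias (AML) with and without *IRX3*. The genes were taken from the deposited table by their symbol, 8 of 41128 genes listed and, after a filter on low values, 8 of 9522 protein-coding genes tested. *Anxa1* and *Anxa3* fell in *Hoxa9*/*IRX3* leukemias, *Anxa6* and *Anxa7* were lower in every *Hoxa9*/*IRX3* mouse without passing the test, and the values of *Anxa2*, *Anxa4*, *Anxa5* and *Anxa11* overlapped between the cohorts.

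The study asked what the homeodomain transcription factor *IRX3* changes in leukemias driven by the homeodomain protein *Hoxa9*. KIT+ bone marrow (BM) cells of CD45.1+ mice, given as B6.SJL-Ptprca Pepcb/BoyJ in the methods and as C57BL/6 in the labels, received retroviral *Hoxa9* together with either *IRX3* from a human cDNA or the empty vector MTV, and were transplanted with unfractionated CD45.2+ BM cells into lethally irradiated, young adult female CD45.2+ recipients. All 6 leukemias therefore carried *Hoxa9*, and all recipients were irradiated. Donor-derived KIT+Gr1+ cells were sorted from leukemic BM that had been frozen and thawed, from mice 1.1, 1.2 and 1.4 with the empty vector and from mice 3.2, 3.3 and 3.5 with *IRX3*. Each of the 6 mice gave 1 library. The study describes a different time to leukemia in each cohort, so time from transplant to sampling and *IRX3* cannot be told apart. The number of clones in each leukemia and the age of each sampled mouse were not found in the sources used here. Expression is in RPKM, reads per kilobase scaled to the reads of the library, where the length the authors used is the whole gene span with its introns. The libraries held 7979246 to 9803621 reads, and between 51 and 2869 reads lay behind each annexin value.

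The label checks concerned the transgenes and the sort. Both were expressed from retroviral vectors, which are not limited to one cell type. *Hoxa9* stood at 174 to 363 RPKM in *Hoxa9*/MTV mice and 154 to 242 RPKM in *Hoxa9*/*IRX3* mice. No control library held reads on mouse *Irx3*, which stood at 15.1, 0.421 and 0.148 RPKM in mice 3.2, 3.3 and 3.5. The transgene is human, so reads on the mouse gene are no measure of its amount, and mouse 3.2 stood apart from the other two by this value. *Kit* (1.63 to 3.12 RPKM), *Ptprc*, which encodes CD45 (1.53 to 2.09 RPKM), and the Gr1 gene *Ly6c2* (413 to 844 RPKM) were present in all libraries, whereas *Ly6g*, the other Gr1 gene, reached 0.145 RPKM at most in *Hoxa9*/MTV mice and 0.682 to 1.42 RPKM in *Hoxa9*/*IRX3* mice.

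Annexins share a core of repeats, each of which folds into a bundle of helices and can hold calcium in a loop. In myeloid cells *Anxa1* is known as a glucocorticoid-inducible brake on neutrophil recruitment that is secreted and signals through formyl peptide receptors, and *Anxa3* as an abundant protein of neutrophil granules. *Anxa2* forms a complex with S100A10 that gathers plasminogen at the cell surface, and labelled annexin A5 is widely used to stain dying cells because it binds exposed phosphatidylserine.

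The calcium-binding loop is marked by the residues Gly-X-Gly-Thr-Asp. The coding bases around the first such motif of each protein are shown because they are what the family has in common, 15 codons each from the GENCODE M21 transcript with the longest coding sequence, 5′ to 3′, with the 5 codons of the motif in capitals.
Anxa1: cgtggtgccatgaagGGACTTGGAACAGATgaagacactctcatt
Anxa2: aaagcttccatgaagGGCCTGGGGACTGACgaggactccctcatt
Anxa3: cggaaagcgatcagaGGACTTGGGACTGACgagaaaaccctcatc
Anxa4: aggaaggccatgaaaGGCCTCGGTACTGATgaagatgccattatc
Anxa5: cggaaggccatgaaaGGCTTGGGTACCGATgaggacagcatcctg
Anxa6: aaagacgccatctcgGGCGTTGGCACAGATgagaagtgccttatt
Anxa7: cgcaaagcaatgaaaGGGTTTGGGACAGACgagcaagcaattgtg
Anxa11: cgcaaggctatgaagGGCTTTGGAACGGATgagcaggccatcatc

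The strict motif occurred 1 time in the annexins A1 and A2, 3 times in A3, A4 and A5, 4 times in A6, and 2 times in A7 and A11. Annexin A6, with its doubled core, was the longest at 673 residues, followed by A11 (503) and A7 (485), which carry long amino-terminal tails, while the other 5 ranged from 319 to 346. Across the 28 pairs, between 41.0% and 58.3% of aligned residues were identical, with a median of 48.8%. The closest pair was *Anxa4* and *Anxa11*, and the most distant was *Anxa1* and *Anxa5*. The annexins that passed the test, *Anxa1* and *Anxa3*, shared 50.6% of residues, within the range of the other pairs. Among the bases, the longest run that any pair had in common was 18, against a read length of 75, so that a whole read does not match 2 of these coding sequences exactly.

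**Figure D1:**
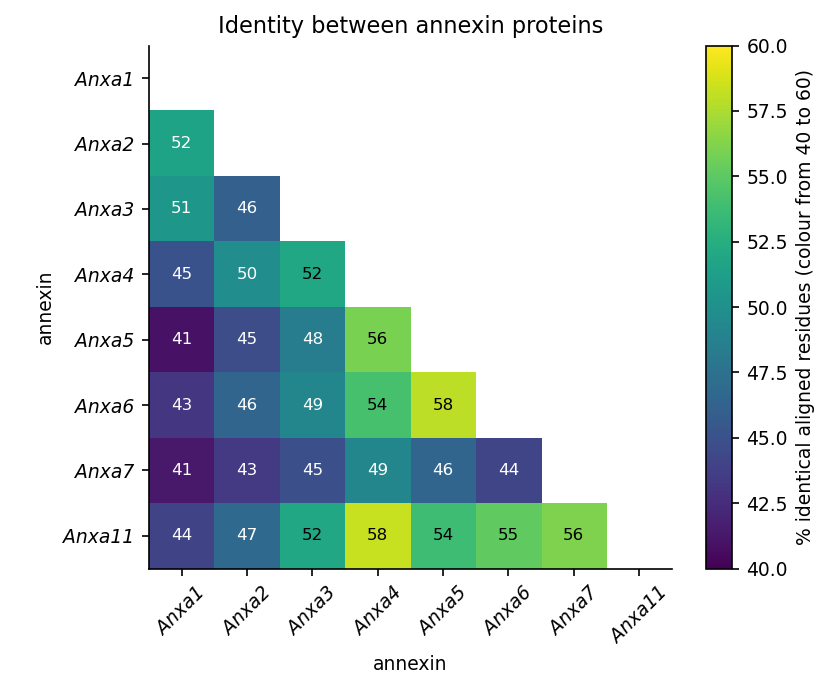
Percent of identical aligned residues for each of the 28 pairs of annexin proteins, rounded to whole percent, with the colour scale running from 40% to 60%. *Anxa4* and *Anxa11* (58.3%) and *Anxa5* and *Anxa6* (58%) are the closest pairs, and the column of *Anxa1* runs from 41% to 51.6%.

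Of the 8 annexins, 2 (*Anxa1* and *Anxa3*) were lower in *Hoxa9*/*IRX3* cells at an adjusted p under 0.05 and 0 were higher, by limma on log2(RPKM + 0.5) with Benjamini-Hochberg adjustment over the 9522 genes. Among all tested genes 3.52% were called lower and 1.84% higher. At an unadjusted p under 0.05 the annexins counted 4 lower and 0 higher, beside 16% of tested genes lower and 8.34% higher. *Anxa1* alone was also at least 2-fold lower on that scale, which 2.03% of tested genes were. In 4 of 8 annexins (*Anxa1*, *Anxa3*, *Anxa6* and *Anxa7*) every *Hoxa9*/*IRX3* mouse was below every *Hoxa9*/MTV mouse, a pattern that 21.6% of tested genes also showed. Of these, *Anxa6* passed the filter through the *Hoxa9*/MTV mice alone. The median log2 fold change was -0.40 over the annexins and -0.06 over all tested genes.

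**Figure D2:**
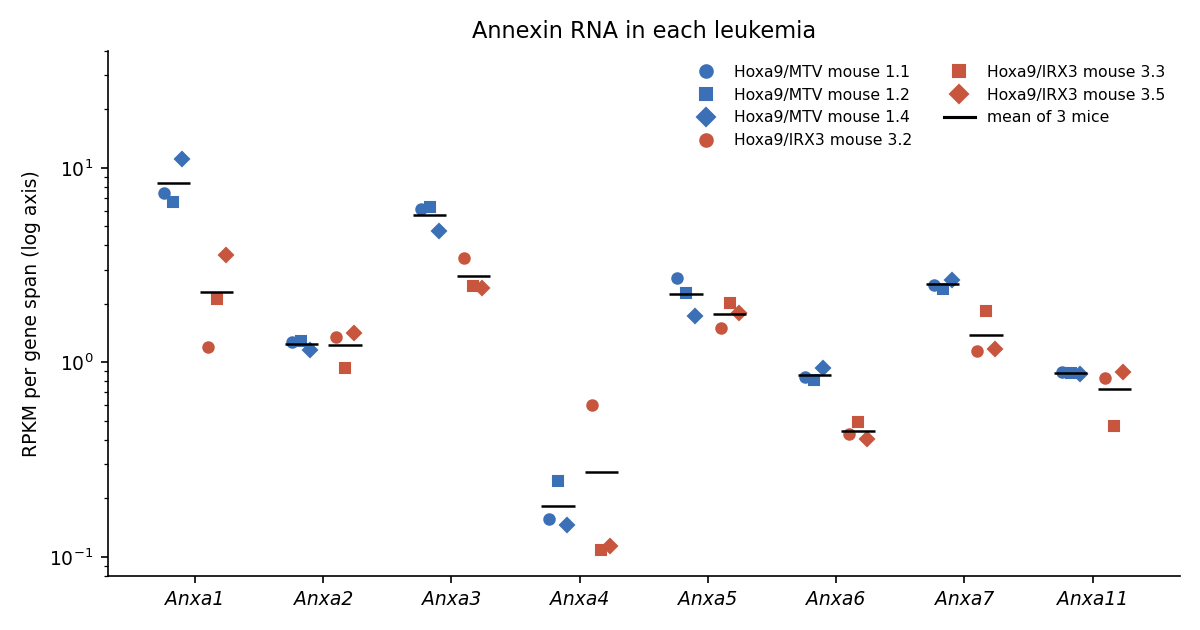
RPKM per gene span (log axis) of the 8 annexins in each of the 6 leukemias, with blue symbols for *Hoxa9*/MTV mice, red symbols for *Hoxa9*/*IRX3* mice and a black line for the mean of 3 mice. The cohorts are apart for *Anxa1*, *Anxa3*, *Anxa6* and *Anxa7*, and the single high value of *Anxa4* is mouse 3.2 at 0.601 RPKM.

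*Anxa1* (ENSMUSG00000024659, GRCm38 chr19:20373428-20390944, minus strand) fell further than any other annexin tested. RNA of *Anxa1* was at 7.4, 6.68 and 11.1 RPKM in mice 1.1, 1.2 and 1.4, and at 1.2, 2.12 and 3.56 RPKM in mice 3.2, 3.3 and 3.5. Mouse 1.4 was the highest and mouse 3.2 the lowest, and the lowest *Hoxa9*/MTV value was above the highest *Hoxa9*/*IRX3* value. The means were 8.38 ± 2.35 and 2.3 ± 1.19 RPKM (SD, n = 3 each), a ratio of 3.65. The log2 fold change was -1.73 ± 0.34 (SE; 95% interval -2.54 to -0.91; adjusted p = 0.0391, limma). The values rest on 972 to 1875 reads in *Hoxa9*/MTV mice and 187 to 498 reads in *Hoxa9*/*IRX3* mice. The adjusted p rose to 0.0678 without mouse 3.3 and to 0.124, 0.125 and 0.152 without mouse 1.1, 1.2 or 1.4, while it was 0.0435 without mouse 3.2 and 0.0257 without mouse 3.5. The log2 fold change stayed between -2.04 and -1.41 in these 6 fits.

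*Anxa3* (ENSMUSG00000029484, chr5:96793339-96845966, plus strand) fell from 6.17, 6.26 and 4.75 RPKM in mice 1.1, 1.2 and 1.4 to 3.44, 2.46 and 2.42 RPKM in mice 3.2, 3.3 and 3.5. Here mouse 1.4 was the lowest of the controls and mouse 3.2 the highest of the *Hoxa9*/*IRX3* mice, the reverse of their places for *Anxa1*, and the cohorts did not overlap. The means were 5.73 ± 0.846 and 2.77 ± 0.581 RPKM (SD, n = 3 each), a ratio of 2.07. On the log2 scale the change was -0.93 ± 0.17 (SE; 95% interval -1.35 to -0.52; adjusted p = 0.0354, limma). With 1016 to 2869 reads per library it was the most deeply covered annexin. The call held without mouse 3.2 (adjusted p = 0.0212, limma) and was lost without any one of the other 5 mice, at adjusted p between 0.0608 and 0.148 and a log2 fold change of -1.05 to -0.86.

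*Anxa6* (ENSMUSG00000018340, chr11:54979108-55033445, minus strand), which binds cholesterol-rich endosomal and plasma membranes, was at 0.837, 0.813 and 0.936 RPKM in mice 1.1, 1.2 and 1.4. In mice 3.2, 3.3 and 3.5 it was at 0.43, 0.492 and 0.404 RPKM. The spread within a cohort was narrow, with means of 0.862 ± 0.0653 and 0.442 ± 0.0453 RPKM (SD, n = 3 each) and a ratio of 1.95. The log2 fold change was -0.53 (95% interval -0.81 to -0.26) at an adjusted p of 0.0502 by limma, beside the threshold of 0.05. Values near the added 0.5 RPKM are pulled together on this scale. No *Hoxa9*/*IRX3* value exceeded the filter of 0.5 RPKM, so *Anxa6* entered the test through the *Hoxa9*/MTV mice alone. For a gene at this level the filter and the direction of the change are not independent. The call depended on the setting, passing in 5 of 10 others at adjusted p between 0.0173 and 0.092 (limma). With reads divided by exon length the log2 fold change was -0.93 (adjusted p = 0.0173, limma), and by voom on the recovered reads it was -0.96 (adjusted p = 0.0301, limma). At the same -0.53 it passed with no filter (adjusted p = 0.044, limma) or no variance trend (adjusted p = 0.0451, limma).

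*Anxa7* (ENSMUSG00000021814, chr14:20455260-20480133, minus strand), a binding partner of sorcin, had 2.51, 2.38 and 2.66 RPKM in the controls. Mice 3.2, 3.3 and 3.5 had 1.14, 1.84 and 1.17 RPKM. Mouse 3.3 was the highest of its cohort and still below all controls. The means were 2.52 ± 0.142 and 1.38 ± 0.397 RPKM (SD, n = 3 each), a ratio of 1.82. On the log2 scale the change was -0.70 (95% interval -1.09 to -0.31; adjusted p = 0.06, limma). Leaving out mouse 3.3 brought it to -0.87 at an adjusted p of 0.0152, and leaving out any other mouse did not bring it past the threshold.

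The other 4 annexins overlapped between the cohorts. *Anxa2* (ENSMUSG00000032231, chr9:69453620-69491795, plus strand) was at 1.27, 1.28 and 1.16 RPKM in *Hoxa9*/MTV mice and 1.35, 0.93 and 1.42 RPKM in *Hoxa9*/*IRX3* mice. Its log2 fold change of -0.01 had a 95% interval of -0.35 to 0.33 (adjusted p = 0.963, limma). *Anxa5* (ENSMUSG00000027712, chr3:36448923-36475894, minus strand) was at 2.71, 2.26 and 1.73 RPKM in the controls and 1.5, 2.02 and 1.79 RPKM in mice 3.2, 3.3 and 3.5, so that mouse 1.4 lay among the *Hoxa9*/*IRX3* mice. Its log2 fold change was -0.26 (95% interval -0.66 to 0.14; adjusted p = 0.379, limma).

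*Anxa11* (ENSMUSG00000021866, chr14:25842156-25886804, plus strand), which like *Anxa7* binds penta-EF-hand proteins and tethers RNA granules to lysosomes, was at 0.889, 0.879 and 0.873 RPKM in the controls. It was at 0.827, 0.468 and 0.887 RPKM in mice 3.2, 3.3 and 3.5, with mouse 3.3 apart from the other 5 mice. The log2 fold change was -0.19 (95% interval -0.57 to 0.20; adjusted p = 0.509, limma). *Anxa4* (ENSMUSG00000029994, chr6:86736840-86793584, minus strand), best known from epithelia, was at 0.146 to 0.244 RPKM in the controls and at 0.601, 0.108 and 0.113 RPKM in mice 3.2, 3.3 and 3.5. It passed the filter through mouse 3.2 alone, which held 302 reads against 51 to 115 in the other libraries. Its log2 fold change was 0.13 (95% interval -0.51 to 0.76; adjusted p = 0.8, limma), and without mouse 3.2 the gene was below the filter.

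**Figure D3:**
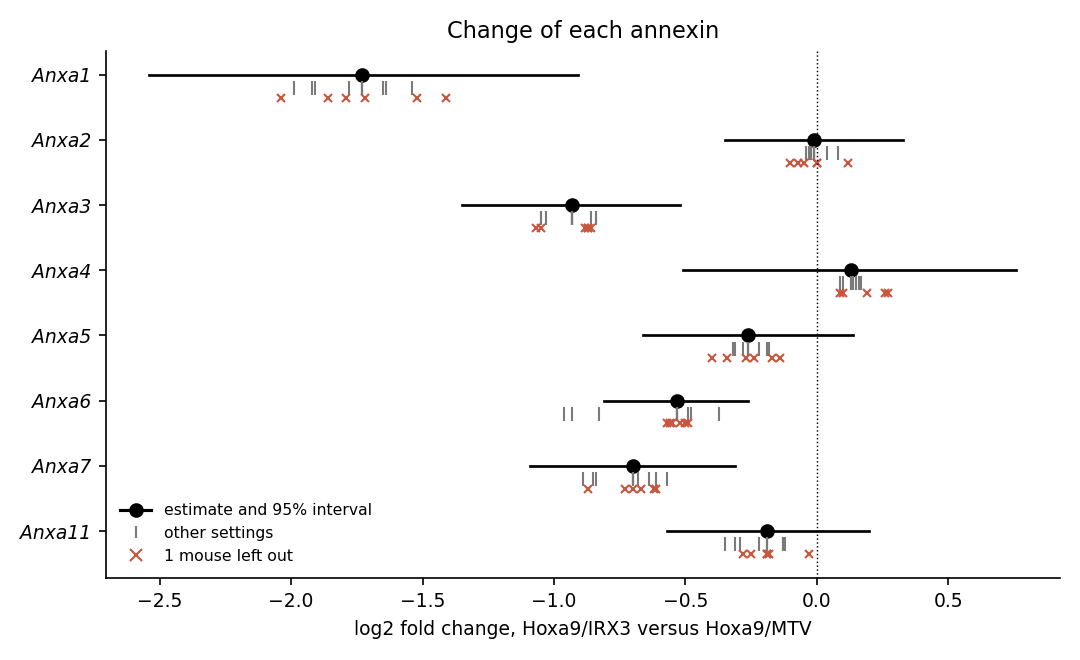
Log2 fold change of each annexin in *Hoxa9*/*IRX3* against *Hoxa9*/MTV leukemias, with the estimate and its 95% interval (black), the other settings of the fit (grey ticks) and the fits with 1 mouse left out (red crosses). The intervals of *Anxa1*, *Anxa3*, *Anxa6* and *Anxa7* lie below 0, and those of *Anxa2*, *Anxa4*, *Anxa5* and *Anxa11* include 0.

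Of the other annexin genes, 4 were in the table. *Anxa9*, whose loops have lost the calcium-binding residues, was at 0.756 to 0.945 RPKM in *Hoxa9*/MTV mice and 0.622 to 1.31 RPKM in *Hoxa9*/*IRX3* mice (log2 fold change 0.19, adjusted p = 0.596, limma). *Anxa8* had a value above 0 in mouse 1.4 alone, at 0.00709 RPKM, and *Anxa10* and *Anxa13* were listed at 0 in all 6 mice.

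Levels can be compared between genes only per length, so the reads of each gene were also divided by the length of its merged exons (exon RPKM). These are all reads recovered for the gene and were not limited to exons, so any reads in introns count too. Order, sums and shares below carry this limit. Summed over the 8 annexins, the level was 225, 215 and 213 exon RPKM in mice 1.1, 1.2 and 1.4, and 122, 112 and 121 in mice 3.2, 3.3 and 3.5. The means were 218 ± 6.46 and 118 ± 6.02 (SD, n = 3 each), so the summed level was 1.84 times higher without *IRX3*, and the spread within a cohort was small. *Anxa1* and *Anxa3* made up 79.8% of the difference of 99.4 between the cohorts. The other 6 annexins together came to 77.7 to 91.6 in *Hoxa9*/MTV mice and 63.3 to 65.4 in *Hoxa9*/*IRX3* mice.

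**Figure D4:**
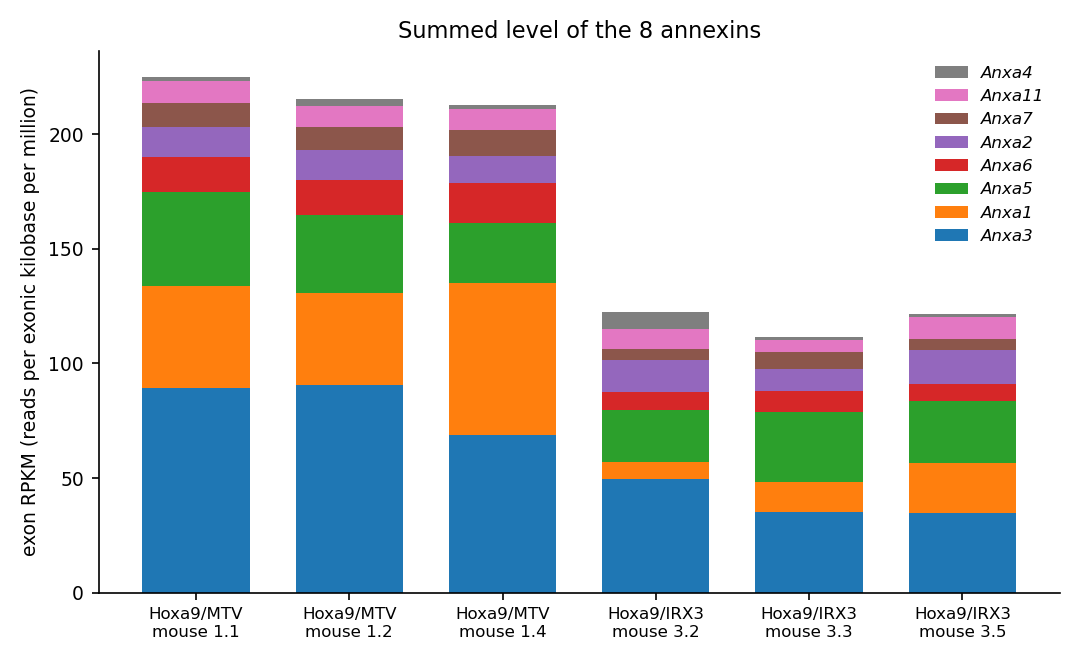
Level of the 8 annexins in each leukemia, in exon RPKM, stacked so that the height of a bar is their sum. The 3 *Hoxa9*/MTV mice reach 213 to 225 and the 3 *Hoxa9*/*IRX3* mice 112 to 122, with the largest differences in the segments of *Anxa3* and *Anxa1*.

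The order of the annexins by mean exon RPKM differed between the cohorts. In *Hoxa9*/MTV leukemias *Anxa3* led at 82.7 ± 12.2 exon RPKM, followed by *Anxa1* (50.4 ± 14.1), *Anxa5* (33.9 ± 7.41), *Anxa6* (16 ± 1.21), *Anxa2* (12.7 ± 0.724), *Anxa7* (10.5 ± 0.588), *Anxa11* (9.51 ± 0.0873) and *Anxa4* (2.23 ± 0.656; SD, n = 3 each). Of the neighbours in this order only *Anxa1* and *Anxa5* overlapped. In *Hoxa9*/*IRX3* leukemias *Anxa3* again led at 40 ± 8.39 exon RPKM, and *Anxa5* at 26.8 ± 4 now stood above *Anxa1* at 13.8 ± 7.15. Below *Anxa5*, the values of *Anxa1* and *Anxa2* (12.6 ± 2.73) overlapped, as did those of *Anxa6*, *Anxa11*, *Anxa7* and *Anxa4*, each with its neighbour (means 8.19, 7.85, 5.74 and 3.34). *Anxa1* ranked above 91.3% of tested genes by exon RPKM in *Hoxa9*/MTV leukemias and above 61.5% in *Hoxa9*/*IRX3* leukemias, and *Anxa3* above 95.7% and 88.6%. Part of the order below *Anxa3* depends on the length used. With the length of the transcript with the longest coding sequence, *Anxa2* (32.6 ± 7.03) and *Anxa5* (27.5 ± 4.11) both had a higher mean than *Anxa1* (24 ± 12.4) in *Hoxa9*/*IRX3* mice.

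The share of each annexin in the summed level does not move with the scaling of a library. *Anxa1* made up 23.2% ± 6.98 of the sum in *Hoxa9*/MTV mice and 11.7% ± 5.87 in *Hoxa9*/*IRX3* mice, *Anxa2* 5.81% ± 0.27 and 10.6% ± 1.83, *Anxa5* 15.5% ± 2.98 and 22.8% ± 4.5, and *Anxa11* 4.37% ± 0.0891 and 6.57% ± 1.79 (SD, n = 3 each). For these 4 genes the 3 shares of one cohort lay apart from the 3 of the other, at an exact two-sided permutation p of 0.1, the smallest that 3 mice against 3 allow. Adjusted over the 8 shares compared, these p were all 0.2. Shares of one sum depend on each other, so a higher share need not be a higher level. The mean level of *Anxa2* was 12.7 and 12.6 exon RPKM in *Hoxa9*/MTV and *Hoxa9*/*IRX3* mice. Mean levels of *Anxa5* (33.9 and 26.8) and *Anxa11* (9.51 and 7.85) were lower in *Hoxa9*/*IRX3* mice, where their shares were higher. With transcript length the shares of *Anxa5* overlapped (exact permutation p = 0.2). The share of *Anxa3* was 37.9% ± 5.07 and 33.7% ± 6.15, and its values overlapped (exact permutation p = 0.4), as did those of *Anxa4*, *Anxa6* and *Anxa7*.

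Annexins work with small calcium-binding partners of the S100 family. *S100a10*, the partner of *Anxa2*, fell from 4.98, 4.33 and 5.45 RPKM in the controls to 0.413, 0.384 and 1.51 RPKM in mice 3.2, 3.3 and 3.5. Its log2 fold change was -2.20 (95% interval -2.97 to -1.43; adjusted p = 0.0182, limma), beside the value of -0.01 for *Anxa2*. *S100a11*, the partner of *Anxa1*, was at 7.84, 7.85 and 6.74 RPKM in the controls and 11.1, 19 and 18.8 RPKM in *Hoxa9*/*IRX3* mice. The log2 fold change of *S100a11* was 1.04 (95% interval 0.49 to 1.59; adjusted p = 0.0536, limma), so the pair of *Anxa1* and *S100a11* had values of opposite sign. *S100a4* was at 2.38 to 3.38 RPKM in the controls and at 0.397, 0 and 1.54 RPKM in mice 3.2, 3.3 and 3.5 (adjusted p = 0.0775, limma). *S100a6* was at 6.05 to 10.8 RPKM in the controls, at 0.965 and 1.14 RPKM in mice 3.2 and 3.3, and at 43.2 RPKM in mouse 3.5 (log2 fold change -0.75, 95% interval -3.79 to 2.29). That interval allows a change in either direction, since mouse 3.5 lay above and the other 2 below all controls.

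The list of penta-EF-hand proteins, a family with members that bind the tails of *Anxa7* or *Anxa11*, had 0 of 4 genes past the test. The log2 fold changes were -0.27 for *Pdcd6* (ALG-2), 0.19 for *Sri* (sorcin), 0.27 for *Pef1* and 0.11 for *Capns1*, at adjusted p between 0.223 and 0.678 (limma). *Capns1*, the small calpain subunit, was at 21.6 to 27.6 RPKM in all 6 libraries.

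**Figure D5:**
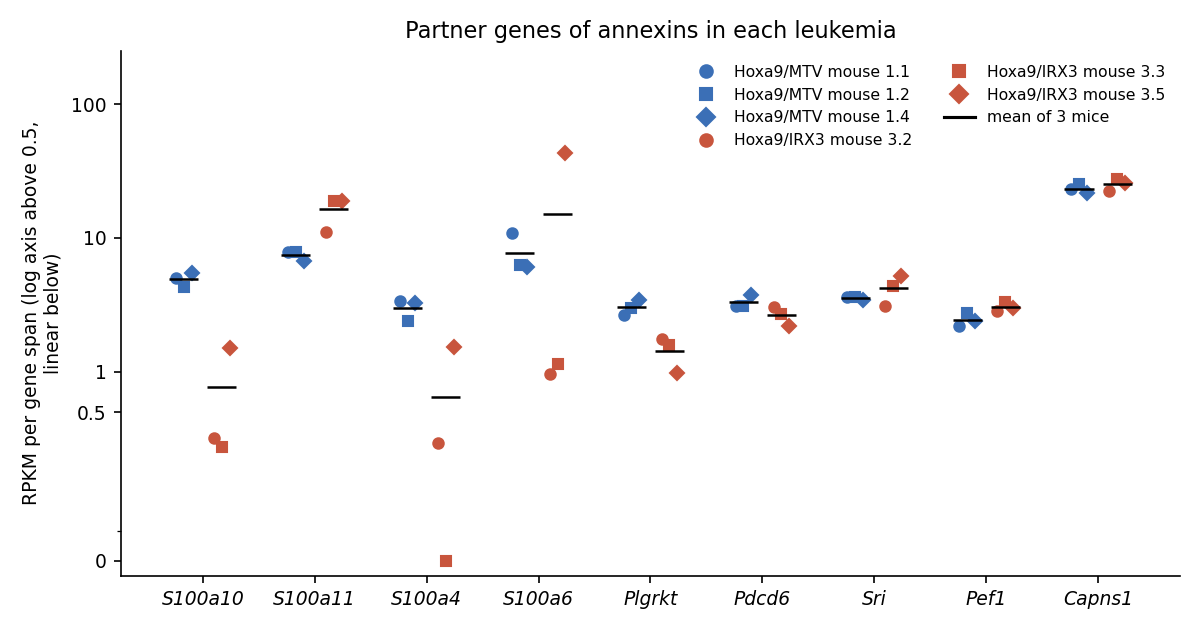
RPKM per gene span of 9 partner genes in each of the 6 leukemias, on an axis that is logarithmic above 0.5 RPKM and linear below it, with blue symbols for *Hoxa9*/MTV mice, red symbols for *Hoxa9*/*IRX3* mice and a black line for the mean of 3 mice. *S100a10* and *Plgrkt* are lower in all 3 *Hoxa9*/*IRX3* mice, and *S100a6* of mouse 3.5 (43.2 RPKM) stands far from mice 3.2 and 3.3.

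Over all 8 lists of genes tied to annexin functions, 44 of 65 genes were tested. Of these 1 rose and 2 fell at an adjusted p under 0.05 (limma), with a median log2 fold change of 0.05. Among all tested genes 1.84% rose and 3.52% fell, with a median of -0.06, so the counts are not read as a trait of the lists. The 2 partner genes that fell were *S100a10* and *Plgrkt*, a plasminogen receptor that acts beside the *Anxa2* complex. *Plgrkt* stood at 2.66, 3 and 3.41 RPKM in the controls and 1.75, 1.58 and 0.98 RPKM in *Hoxa9*/*IRX3* mice (log2 fold change -0.88, adjusted p = 0.0469, limma). It was the only one of 3 tested genes of plasminogen activation to pass. In the glucocorticoid response, which can induce *Anxa1*, 1 of 9 genes passed. This was the transcription factor *Klf9*, which rose from 0.101, 0.623 and 0.753 RPKM to 5.4, 4.23 and 3.24 RPKM (log2 fold change 2.32, adjusted p = 0.0143, limma), while the median of the list was 0.02. The list was split in direction. The cohorts were also apart, without passing, for *Dusp1* (-1.44, adjusted p = 0.0731, limma) and *Zfp36* (-1.40, adjusted p = 0.0776, limma), a lower pattern that 21.6% of tested genes showed. They were apart in the direction of *Klf9* for *Cebpd* (0.55, adjusted p = 0.191, limma). They overlapped for the rest of the list, including *Tsc22d3* (-0.81, adjusted p = 0.17, limma) and *Per1* (-0.80, adjusted p = 0.552, limma). Cohorts apart without passing also occurred in other lists, as for *Plaur* (-1.22, adjusted p = 0.146, limma) and *Ptgs1* (0.78, adjusted p = 0.0879, limma). Of the formyl peptide receptors only *Fpr2*, the receptor of *Anxa1*, passed the filter, at 0.255 to 0.439 RPKM in the controls and 0.516, 0 and 0.102 RPKM in mice 3.2, 3.3 and 3.5 (adjusted p = 0.521, limma). Membrane repair (7 genes tested), phosphatidylserine exposure and recognition (8) and eicosanoid synthesis (8), the pathway that *Anxa1* was first described to inhibit, had 0 genes past the test, with medians of 0.00, 0.05 and 0.14. The count of 3 partner genes went to 0 without mouse 1.2 or 1.4, to 1 without mouse 1.1, and to 5 without any one *Hoxa9*/*IRX3* mouse.

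Cells of several myeloid stages express annexins, and bulk RNA of sorted cells cannot tell fewer cells of a type from less RNA per cell. Of the markers of monocytes and macrophages, 2 of 7 tested were lower (*Ccr2* and *Ms4a6c*) and 0 higher. Over all tested genes, 3.52% were called lower and 1.84% higher, which also stands beside the marker counts below. Monocyte and macrophage markers summed to at least 70.7 RPKM in each *Hoxa9*/MTV mouse and to 23.6 to 63.7 RPKM in *Hoxa9*/*IRX3* mice. None of the 9 markers measured was at 0 in all mice. Most of the sum of mouse 3.2 was *Cd14*, at 50.8 RPKM against 8.47 to 17.2 RPKM in the controls. *Csf1r* of mouse 3.3, at 6.43 RPKM, was also above all controls. Progenitor markers summed to 1655 to 2430 RPKM in the controls and to 4188 to 5752 RPKM in *Hoxa9*/*IRX3* mice, with most of the sum from the granule protein genes *Elane*, *Mpo*, *Ctsg* and *Prtn3*. Of the 8 progenitor markers *Elane* rose, while *Cd34* and *Flt3* fell. *Cd34* went from 18.5, 15.3 and 18.3 RPKM to 0.819, 0.00454 and 2.41 RPKM. *Flt3* passed the filter through the *Hoxa9*/MTV mice alone, so for it the filter and the direction are not independent. By *Elane* and *Cd34* the list did not move one way. Neutrophil markers, 2 of 11 higher (*Retnlg* and *Cd177*), overlapped at 1525 to 2242 and 1216 to 3448 RPKM. The sums of monocyte, mast cell and basophil, B cell and stroma markers were lower in every *Hoxa9*/*IRX3* mouse, as *Anxa1*, *Anxa3*, *Anxa6* and *Anxa7* were. Taken singly, 21.6% of tested genes showed this lower pattern. The sums of progenitor and erythroid markers lay apart in the other direction, higher in every *Hoxa9*/*IRX3* mouse. The erythroid and stroma sums were low, at most 0.303 and 1.83 RPKM. The part of these cell types in the annexin values was not tested. Markers of mast cells and basophils summed to 9.9 to 14.2 RPKM in the controls and 3.22 to 6.69 RPKM in *Hoxa9*/*IRX3* mice, with *Fcer1a* at 0 in all 6 mice. Those of B cells summed to 6.25 to 7.13 and 0.276 to 2.31 RPKM, nearly all from *Cd79b*, with *Ms4a1* and *Pax5* at 0. The T and NK cell list, at 22.7 to 33 and 14.9 to 482 RPKM, was nearly all *Nkg7*, with *Cd3d* and *Ncr1* at 0. Markers of dendritic cells, megakaryocytes, erythroid cells and stroma had 0 genes past the test in either direction, with 0 of 5 erythroid genes above the filter.

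Genes beside the annexins on the chromosome were looked at to describe the region of each. The nearest tested genes lay 881333 bases or more from *Anxa1* and 151722 bases or more from *Anxa3*. A change of a smaller region around these 2 annexins need not show in them. Of the 16 nearest tested genes, one on each side of each annexin, 0 passed the test. The lowest adjusted p among them were 0.114 for *D030056L22Rik*, 1654999 bases from *Anxa1*, and 0.165 for *Exosc9*, which lies 76711 bases from *Anxa5*. *Zfand5*, on the other side of *Anxa1*, had the largest log2 fold change of these genes, at -0.74 (adjusted p = 0.227, limma), and its values overlapped between the cohorts. *Mss51*, 2733 bases from *Anxa7*, had a log2 fold change of -0.33 (adjusted p = 0.319, limma). At an unadjusted p under 0.05 the 16 genes counted 2, beside 24.3% of all tested genes. Among genes that overlap an annexin span, including the antisense genes *Gm16144* and *Gm9872*, the highest estimate in a library was 6.86 reads.

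Promoter sequences, from 250 bases before to 50 after the start in RefSeq on GRCm38, were in the table used for 6 of the 8 annexins. The windows of *Anxa1* and *Anxa7* are shown because these are the annexins with cohorts that did not overlap and an entry in that table. For *Anxa7*, which had more than 1 window, only the one with a motif match is shown. Motifs were searched on both strands as ACANNTGT for Iroquois proteins, TTGCNNAA for C/EBP and GAGGAAGT for PU.1, and matches are in capitals.
Anxa1, chr19:20390622-20390921, minus strand: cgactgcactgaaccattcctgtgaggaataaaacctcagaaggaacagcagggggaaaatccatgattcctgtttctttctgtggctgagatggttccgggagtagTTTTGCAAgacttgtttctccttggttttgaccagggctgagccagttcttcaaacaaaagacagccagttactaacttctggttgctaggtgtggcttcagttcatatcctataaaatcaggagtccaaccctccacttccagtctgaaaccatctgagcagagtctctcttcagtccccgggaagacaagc
Anxa7, chr14:20479892-20480191, minus strand: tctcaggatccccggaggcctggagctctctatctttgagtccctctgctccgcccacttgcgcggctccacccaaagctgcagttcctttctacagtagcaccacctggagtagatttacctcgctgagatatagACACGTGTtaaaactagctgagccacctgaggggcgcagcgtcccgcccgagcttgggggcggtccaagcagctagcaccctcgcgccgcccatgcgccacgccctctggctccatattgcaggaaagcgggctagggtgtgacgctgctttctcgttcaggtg

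The *Anxa1* window held 1 C/EBP match, read on the opposite strand, and the *Anxa7* window 1 Iroquois match. Of 32851 promoters, 10.8% held the C/EBP letters, 7.38% the Iroquois letters and 3.2% those of PU.1. The second start of *Anxa7*, chr14:20480084-20480383, had 0 matches, as did *Anxa2*, *Anxa5* and *Anxa11*, and 1 of the 2 starts of *Anxa4* had a C/EBP match. These are descriptions of letters in a window, and binding was not measured.

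The profile of *Anxa1* over the 6 mice was compared with that of 2537 other genes, all with mean RPKM of 5 or more, by the root mean square difference of centred log2(RPKM + 0.5). The 3 closest were *H2-DMa* (0.16), a chaperone of peptide loading on MHC class II, *Icosl* (0.22), the ligand of the costimulatory receptor ICOS, and *Lgals1* (0.22), which encodes galectin 1. *H2-DMa* was at 18.5, 20.2 and 24.3 RPKM in the controls and 4.52, 6.71 and 9.85 RPKM in mice 3.2, 3.3 and 3.5, the order of the mice within the *Hoxa9*/*IRX3* cohort that *Anxa1* also had. For *Anxa3*, with 2538 candidates, the closest were *Prkcd* (0.13), which encodes protein kinase C delta, *Myadml2* (0.14) and *Uba7* (0.16), the activating enzyme for the ubiquitin-like protein ISG15. *Prkcd* was at 8.12 to 8.76 RPKM in *Hoxa9*/MTV mice and 4.38 to 5.37 RPKM in *Hoxa9*/*IRX3* mice. With 6 points these are descriptions of likeness over the mice.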

How the data were processed

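RNA of KIT+Gr1+ leukemia cells was compared between 3 *Hoxa9*/MTV and 3 *Hoxa9*/*IRX3* mice, with the cohort of each library taken from its label. The mouse numbers differ between the cohorts and pair nothing. The authors aligned reads of stranded polyA libraries to GRCm38 with Bowtie2 2.2.1, filtered them with SAMtools 0.1.19, assigned them to Ensembl genes and deposited a table of RPKM. These RPKM divide by the whole gene span, so genes with long introns have low values. Read numbers were recovered from the RPKM and the spans of GENCODE M21, and came out whole (to 0.01 of a read) in each of the 6 libraries for all 8 annexins and 65% of tested genes. The spans of *Anxa3*, *Anxa5* and *Anxa7* differed from GENCODE M21 and were taken as the whole number that made all 6 libraries whole.

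The test covered 9522 protein-coding genes whose RPKM exceeded 0.5 in 1 or more mice. Values of log2(RPKM + 0.5) were fitted by limma 3.58.1 under R 4.3.3, using lmFit and eBayes with the trend option, and p-values were adjusted after Benjamini and Hochberg over these genes. Shares were compared with an exact permutation test (scipy 1.17.1, two-sided), and the rest was computed with Python 3.11.15. Proteins were translated from GENCODE M21 transcripts and aligned with Biopython 1.88. The 95% intervals are confidence intervals for the difference between the cohort means, from the moderated limma fit over the 6 mice.

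Named genes were the 8 annexins, the other annexins of the table, the S100 and penta-EF-hand partners, partner genes past the test, the nearest tested gene on each side, the 3 most similar profiles of each annexin past the test, and genes that check the labels. *Fpr2*, *Dusp1*, *Zfp36*, *Cebpd*, *Tsc22d3*, *Per1*, *Plaur*, *Ptgs1* and the cell type markers named singly were chosen after their values were seen. The members, lists and tests were chosen with earlier results of these data known. The alternatives were other pseudocounts (0.1 and 1), filters, scalings, lengths and variance settings, voom on the recovered reads, the study's criterion and leaving out each mouse.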

Additional observations from a re-analysis of the deposited data

How the results depend on the processing

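The count of annexins past an adjusted p of 0.05, 2 as reported, went to 0 with all gene types tested (12806 genes, which raises the adjustment). It went to 1 with median-of-ratios scaling or quantile normalization (*Anxa3*). With no filter it was also 1, but this was *Anxa6*, and neither *Anxa1* nor *Anxa3* passed. It went to 3 (with *Anxa6*) with exon length, no variance trend, a pseudocount of 0.1 or voom on the recovered reads. With 1 mouse left out it was between 0 and 2, and without mouse 3.3 only *Anxa7* passed. The count that also passed 2-fold, 1 as reported, was 0 with all gene types, median-of-ratios scaling, quantile normalization or no filter, 2 with exon length, a pseudocount of 0.1, voom on the recovered reads or the study's criterion of an unadjusted p and a ratio of means, and between 0 and 2 with 1 mouse left out. Without any one *Hoxa9*/MTV mouse 0 annexins passed and 61 to 76 genes passed in all, against 510 with all mice. Without any one *Hoxa9*/*IRX3* mouse 1 or 2 annexins and 482 to 761 genes passed, and the cause of this difference was not tested. The 3 partner genes past the test became 0 to 5 with 1 mouse left out. *Anxa2* turned sign at values near 0, to 0.04 with median-of-ratios scaling, 0.08 with quantile normalization and a range of -0.10 to 0.12 with 1 mouse left out, and the cause was not tested. *Anxa1* kept its direction in all 11 other settings (-1.99 to -1.54) and passed in 7 of them, *Anxa3* (-1.05 to -0.84) passed in 9 of 11, *Anxa6* (-0.96 to -0.37) in 5 of 10 and *Anxa7* (-0.89 to -0.57) in 0 of 11. Both scalings moved the median over all tested genes from -0.063 to -0.002 and 0.017. The filter on a mean of 1 RPKM gave no value for *Anxa4*, *Anxa6* and *Anxa11*. The gain of *Anxa2* in the share of the summed level was 4.79 percentage points with merged exons and 6.78 with transcript length, a setting chosen after seeing the data. No paired analysis was possible because the cohorts share no mouse numbers.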
